A study of Homo sapiens with 6 samples.

Results

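Autosomal imprinted gene loci were examined in compartment and domain maps of HCT116, a long-established line of human colorectal carcinoma cells, and of DKO1, a clonal derivative of it in which the DNA methyltransferases DNMT1 and DNMT3B were knocked out. The loci were 10 windows of the hg19 genome, fixed by position around IGF2 with KCNQ1, DLK1 with MEG3, SNRPN, GNAS, PEG3, PEG10, MEST, GRB10, PLAGL1 and IGF2R. They were touched by 236 of the 140474 bins of 20 kb that both maps share, by 16 of 4289 domains listed in HCT116 and by 11 of 1823 listed in DKO1. Both lines were grown in the same serum-supplemented medium, and no treatment or time point differed between them. Hi-C, which ligates and sequences DNA ends that lie close together in the nucleus, was performed on 3 replicates of each line. The 3 replicates name the same maps, so each line has 1 pooled value per bin and 1 domain list. There is therefore no replicate error and no test between the lines, and every difference given here is one between a pair of maps whose depth is unknown. DKO1 cells are known to keep a truncated DNMT1 protein, which limits them as a model of full loss.

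Imprinted genes are expressed mainly from the allele of a single parent. Each cluster is governed by a control region whose DNA methylation is laid down in the egg or the sperm and is then copied at every cell division, a task in which DNMT1 is the main enzyme. At H19 and IGF2 the unmethylated control region binds the insulator protein CTCF, which keeps enhancers away from IGF2. At KCNQ1, and in the mouse at IGF2R, the control region is instead the start of a long non-coding RNA, KCNQ1OT1 or AIRN, whose transcription silences neighbouring genes in cis. The control region is methylated on the paternal allele at H19 with IGF2 and at DLK1 with MEG3, and mainly on the maternal allele at KCNQ1 and the other loci. Imprinted expression of IGF2R itself varies between people. The maps merge the parental alleles, so that none of the values below is specific to an allele.

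Control regions of several of these loci coincide with promoters, and their CpG sites are what the missing enzymes methylate. The 250 bases upstream of a transcription start are therefore shown for 3 such genes and for IGF2R. For each gene the start with the most CpG was taken, counted over the whole listed promoter sequence, which also runs past the start. IGF2R was added after its compartment values had been seen, and its control region lies in an intron rather than here. The sequences were taken from RefSeq on GRCh38.p14, whose positions differ from the hg19 positions used for the maps. The SNRPN start, on the plus strand at chr15:24954737-24954986, is shared with SNURF. MEST lies at chr7:130491835-130492084 on the plus strand. The PLAGL1 start, at chr6:144008260-144008509 on the minus strand, is shared with the non-coding HYMAI, and IGF2R is at chr6:159968832-159969081 on the plus strand. Capitals mark CpG, the letters CG, which read the same on both strands.
SNRPN: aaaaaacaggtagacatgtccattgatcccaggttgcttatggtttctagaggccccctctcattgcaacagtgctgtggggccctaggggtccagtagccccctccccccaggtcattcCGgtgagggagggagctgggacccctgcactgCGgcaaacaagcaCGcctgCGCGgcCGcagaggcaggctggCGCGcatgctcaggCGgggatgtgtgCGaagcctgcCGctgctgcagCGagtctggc
MEST: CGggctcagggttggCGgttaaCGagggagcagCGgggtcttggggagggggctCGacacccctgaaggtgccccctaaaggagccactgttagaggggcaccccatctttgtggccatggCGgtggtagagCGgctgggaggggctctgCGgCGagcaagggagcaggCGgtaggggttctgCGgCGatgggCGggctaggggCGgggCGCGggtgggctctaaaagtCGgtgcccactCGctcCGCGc
PLAGL1: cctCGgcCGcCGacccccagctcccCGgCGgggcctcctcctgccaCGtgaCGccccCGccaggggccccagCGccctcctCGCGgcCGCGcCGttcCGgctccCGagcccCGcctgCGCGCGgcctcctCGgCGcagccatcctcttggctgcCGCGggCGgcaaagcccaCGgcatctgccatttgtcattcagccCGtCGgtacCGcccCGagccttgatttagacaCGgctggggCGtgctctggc
IGF2R: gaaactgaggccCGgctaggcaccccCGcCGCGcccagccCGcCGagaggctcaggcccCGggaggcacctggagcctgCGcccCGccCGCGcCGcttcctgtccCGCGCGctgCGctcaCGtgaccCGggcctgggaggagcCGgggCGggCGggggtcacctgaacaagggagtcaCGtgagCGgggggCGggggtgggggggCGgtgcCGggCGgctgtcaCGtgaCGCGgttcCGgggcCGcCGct
They held 12 CpG at SNRPN, 20 at MEST, 32 at PLAGL1 and 33 at IGF2R. Over 34943 promoter windows of this length the median was 11, and 93.9% held at least 1. As many CpG as at IGF2R, which has a single start in the table, were found in 8.14% of them. For SNRPN, MEST and PLAGL1 the start was chosen among several for its CpG over the listed sequence, so their counts are not comparable with that median. These counts describe the reference sequence and are not methylation measurements.

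Most of the imprinted loci kept their compartment in DKO1, and a single locus, IGF2R, changed compartment as a whole. Compartments were read from PC1, the first principal component of the contact map, given in SD of its chromosome. A positive value was called A, the open and gene-rich compartment, and a negative one B. Of the 236 bins, 131 were A in HCT116 (55.5%) and 137 in DKO1 (58.1%), against 53.7% and 49.2% of shared autosomal bins. Only 2 bins went from A to B, which is 0.85% of the bins, where 8.92% of all shared autosomal bins did so. The opposite change was seen in 8 bins, or 3.39%, against 4.40% of autosomal bins, and all 8 were those of IGF2R. The balance of the directions depended on the setting. It was 7 bins from A to B against 4 from B to A with a 10 Mb running mean subtracted, and 19 against 12 in windows widened by 200 kb. When both lines had to lie at least 0.5 SD from 0, the counts were 0 and 1. The compartment was kept in 95.8% of the bins and in 86.7% of autosomal bins. All bins had the same sign in both lines in 7 of the 10 windows, and SNRPN and PEG10 held the A-to-B bins, 1 each. Bins of a window are neighbours and not independent, and the 3 longest windows hold 191 of the 236, so these shares describe few places. The maps also differed more on chromosomes 6 (PLAGL1 and IGF2R) and 7 (PEG10, MEST and GRB10). Outside the IGF2R window, 16.6% of the bins of chromosome 6 changed compartment, as did 23.6% of those of chromosome 7 outside MEST. On the other chromosomes concerned the shares were 5.49% to 13.2%. The Pearson correlation of the lines was 0.757 and 0.774, against 0.916 to 0.965.

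Differences of at least 0.5 SD were more often upward than downward in the values as deposited, although the upward share was near that of the autosomes. PC1 was higher in DKO1 by at least 0.5 SD in 29 bins (12.3%), against 13.6% of autosomal bins. Of these, 14 lay in SNRPN, 8 in IGF2R, 4 in IGF2-KCNQ1 and 3 in MEST, and the other windows held none. Without IGF2R they were 21 bins, or 9.21%. PC1 was lower by this much in 5 bins (2.12%), 4 in IGF2-KCNQ1 and 1 in PEG10, against 14.9% of autosomal bins. Over all 236 bins the median difference, DKO1 minus HCT116, was 0.22, against 0.0067 over autosomal bins. The mean difference was 0.20, and 0.13 without the SNRPN window, which holds 95 of the bins. It turned to -0.037 with the 10 Mb running mean subtracted, and 6 of the 10 windows were lower in rank on their chromosome. Among the bins of compartment A in HCT116, 129 of 131 stayed in A, or 98.5%, against 83.4% of such bins on the autosomes. The imprinted A bins were also the stronger ones at the start, with a median PC1 of 1.00 in HCT116 against 0.82. Of the bins of compartment B in HCT116, 97 of 105 stayed in B, or 92.4%, near the 90.5% of such autosomal bins. These B bins too began further from 0, with a median of -1.61 against -0.88.

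**Figure D1:**
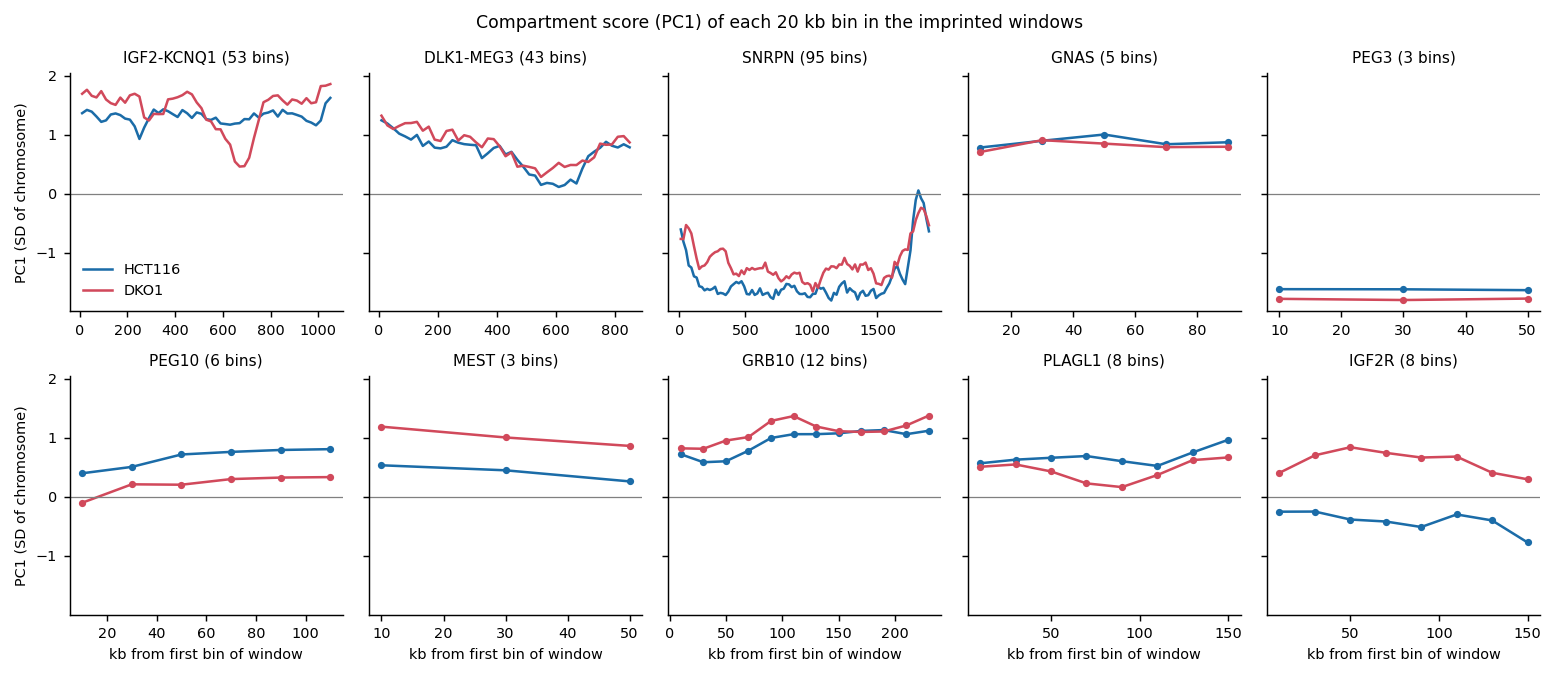
PC1 of every 20 kb bin in each of the 10 windows, in SD of the chromosome, against the distance in kb from the first bin. Blue is HCT116, red is DKO1, each the single pooled map of its line, and the grey line is 0. The lines lie on opposite sides of 0 throughout the IGF2R window only, and DKO1 dips within the IGF2-KCNQ1 window.

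PC1 is centred on each chromosome's mean, so the size and sign of a difference depend on where 0 lies. The median PC1 of the chromosome was lower in DKO1 on all chromosomes concerned but chromosome 6. The shift was -0.44 on chromosome 7 (PEG10, MEST and GRB10) and on chromosome 20 (GNAS), -0.30 on chromosome 15 (SNRPN), -0.21 on chromosome 11 (IGF2-KCNQ1), -0.18 on chromosome 14 (DLK1-MEG3) and -0.13 on chromosome 19 (PEG3). On chromosome 6, with PLAGL1 and IGF2R, it was 0.012. The rank of a window among the bins of its own chromosome does not depend on centring and is given beside the differences. Differences also spread more widely on chromosomes 6 and 7. Their SD over the bins outside a window was 0.70 and 0.67, against 0.26 to 0.41 on the chromosomes of the other windows.

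The IGF2R window had the largest difference of the 10 in PC1 as deposited and in rank. With chromosome medians subtracted it was 0.99, and MEST then had the larger difference, 1.05. IGF2R encodes the cation-independent mannose-6-phosphate receptor, which takes up and degrades IGF2. The window runs from 160380001 to 160540000 of chromosome 6. In HCT116 its 8 bins had PC1 values from -0.77 to -0.25 with a mean of -0.41, and in DKO1 they ranged from 0.30 to 0.84 with a mean of 0.60. Only 1 of the 8 bins was at least 0.5 SD from 0 on both sides of the switch. The difference was 0.66 in the smallest case, in the first bin, and 1.22 in the largest, in the bin starting at 160420001, with a mean of 1.00. The window mean exceeded 39.0% of the bins of chromosome 6 in HCT116 and 68.5% in DKO1, a difference of 29.5 percentage points. Of the other bins of the chromosome, 8.96% were higher in DKO1 by at least the window mean.

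The switch at IGF2R lay within a wider stretch of higher PC1 in DKO1. The bins that went from B to A formed a run of 9, from 160360001 to 160540000, that is the 8 bins of the window and 1 before it. In DKO1 this run was an A interval of 180 kb with B on both sides. In HCT116 the same bins belonged to a B interval of 1180 kb, from 160260001 to 161440000. PC1 was higher in DKO1 by at least 0.5 in 55 of the 59 bins of that interval, with a mean difference of 0.95. The 14 bins of it that became A had a mean of -0.39 in HCT116, and the 45 that stayed in B began lower, at -1.46, and reached -0.49. The mean difference was 0.89 in the former and 0.97 in the latter. In the 1 Mb on each side of the window PC1 was higher by 0.79 on average, by 0.61 towards PLAGL1 and by 0.96 on the far side, where the mean went from -1.30 to -0.33. After subtraction of a running mean over 10 Mb, the difference at IGF2R was 0.41, and only 1 of the 8 bins still switched, since 7 then had the sign of A in HCT116. HCT116 listed a domain of 280 kb over the window, from 160280001 to 160560000. DKO1 listed none there, and its nearest domains lay 300.0 kb before and 1700 kb after the window, in the order of the coordinates.

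**Figure D2:**
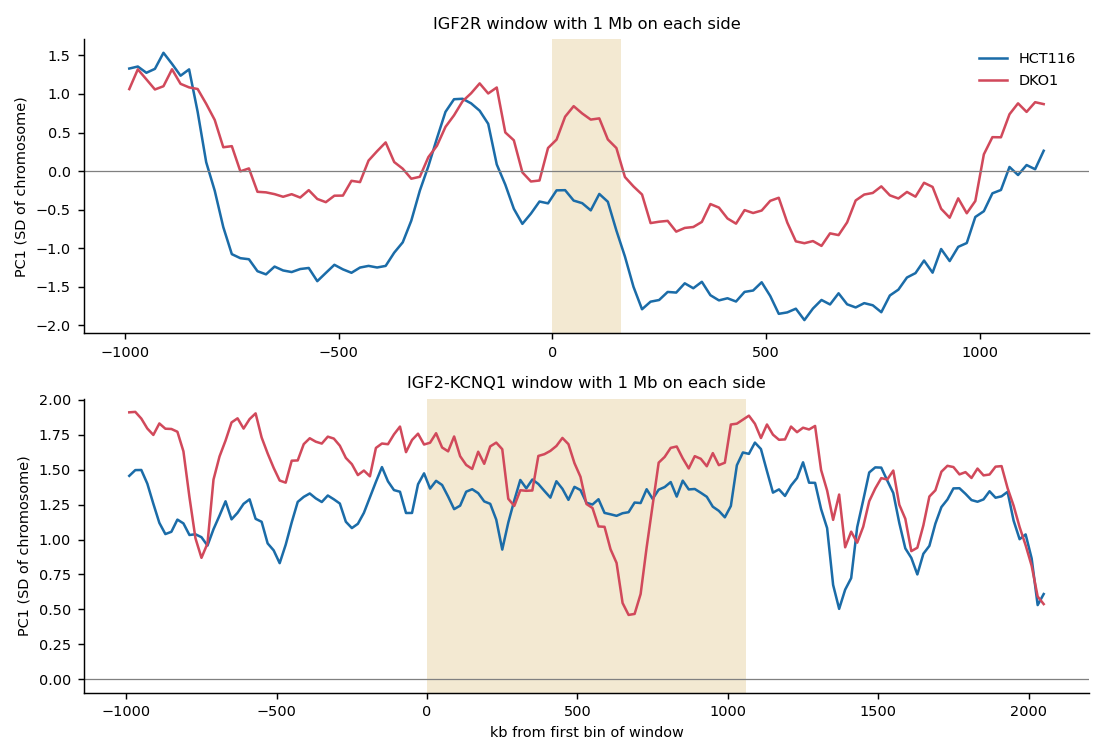
PC1 in SD of the chromosome for the IGF2R window (top) and the IGF2-KCNQ1 window (bottom) with 1 Mb on each side, against kb from the first bin of the window. Blue is HCT116, red is DKO1 and the shading marks the window. At IGF2R the DKO1 line runs above the HCT116 line well beyond the window, with a mean flank difference of 0.79, and the dip in IGF2-KCNQ1 is seen in DKO1 only.

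The IGF2-KCNQ1 window stayed in the strong A compartment throughout, with a local dip in DKO1. The window, touched by 53 bins from 1940001 to 3000000 of chromosome 11, holds a growth-control cluster. RefSeq orders its genes as H19, IGF2 (a fetal growth factor), INS (insulin), ASCL2, TSPAN32, CD81, TSSC4, KCNQ1 (a potassium channel), KCNQ1OT1, CDKN1C (a cyclin-dependent kinase inhibitor), PHLDA2 and NAP1L4. Gene positions on hg19 were not used here, so bins are given by position and not assigned to single genes. PC1 ranged from 0.93 to 1.62 in HCT116, with a mean of 1.31, and from 0.46 to 1.86 in DKO1, with a mean of 1.43. All 53 bins were A in both lines, inside an A interval of 4040 kb in HCT116 and 4060 kb in DKO1. The spread over the bins was wider in DKO1, with an SD of 0.35 against 0.11.

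PC1 shifted in opposite directions in separate stretches of the cluster. PC1 was higher in DKO1 in 37 bins and lower in 16. Of autosomal bins of compartment A in HCT116, 44.8% were higher. The largest positive difference, 0.72, lay in the first part of the window, in the bin starting at 2180001. In the bins starting at 2160001 and 2180001 HCT116 had values of 1.14 and 0.93, and DKO1 had 1.69 and 1.65. The value of 0.93 was the lowest of HCT116 in the window. Single bins starting at 2020001 and 2940001 were also higher in DKO1, by 0.52 and 0.58. The negative differences centred on 4 bins from 2580001 to 2660000, where the mean went from 1.23 to 0.52. The values of HCT116 over these bins were 1.19 to 1.26 and those of DKO1 0.46 to 0.61. In DKO1 the stretch was among the lowest points of its A interval, since 10 of 202 bins lay at or below 0.61, whereas in HCT116 117 of the 202 lay at or below 1.26. On either side PC1 in DKO1 stood at 1.45 in the bin starting at 2440001 and at 1.55 in that starting at 2700001. The lower values of this stretch ran against the surroundings, where PC1 was higher in DKO1 by 0.30 within 1 Mb on each side. The mean difference of the window, 0.13, was not matched by its rank, which went from 92.8% to 91.7% of the bins of the chromosome below it. It also turned to -0.17 after subtraction of the 10 Mb running mean.

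Domain borders differed at the same place. HCT116 listed domains from 2400001 to 2560000 and from 2560001 to 2920000, which meet at 2560000. In DKO1 the nearest boundary to that point was 120 kb away, and a domain ran from 2680001 to 2920000. The stretch with the lowered PC1 lay between these starts and was within no DKO1 domain. The other domains of the cluster were kept. HCT116 listed 1880001 to 2040000, 2000001 to 2200000 and 2200001 to 2440000, and DKO1 listed 1840001 to 2040000, 2040001 to 2200000 and, with the same limits, 2200001 to 2440000. DKO1 also listed a domain from 2920001 to 3240000, for which the best overlap in HCT116 was 50%. Of the boundaries inside the window, 6 of 7 in HCT116 and 4 of 5 in DKO1 were found in the other line.

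The DLK1-MEG3 window, the other locus with paternal methylation, had closely similar values in the maps. DLK1 encodes a membrane protein of the Notch ligand family and MEG3 a non-coding RNA of the maternal allele. RTL1, MEG8, MEG9 and DIO3, which encodes a thyroid hormone deiodinase, follow in RefSeq order, and 49 miRNA hairpins of the RefSeq table lie between MEG3 and DIO3. The 43 bins from 101180001 to 102040000 of chromosome 14 were A in both lines. PC1 was 0.11 to 1.24 in HCT116, with a mean of 0.69, and 0.28 to 1.32 in DKO1, with a mean of 0.81. It was highest at the DLK1 end in both maps. The lowest bins lay in the middle of the window, starting at 101780001 in HCT116 and at 101720001 in DKO1. The largest difference, 0.41, was in the bin starting at 101780001, from 0.11 to 0.52. With a mean difference of 0.13, against 0.24 in the flanks, the rank of the window went from 66.0% to 71.9%. The mean difference became 0.31 when chromosome medians were subtracted. The domain from 101120001 to 101320000 had the same limits in both lines, and that starting at 101320001 ended at 101680000 in HCT116 and at 101720000 in DKO1. A domain of HCT116 from 101680001 to 101920000, over the lowest PC1 of the window, was matched by none in DKO1.

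The SNRPN window was the longest and lay in compartment B. This locus on chromosome 15 is deleted or silenced in Prader-Willi and Angelman syndromes, and RefSeq orders its genes as MKRN3, MAGEL2, NDN, NPAP1, SNHG14, SNRPN, SNURF and UBE3A, a ubiquitin ligase gene. Its 95 bins ran from 23800001 to 25700000. PC1 had a lowest value of -1.81, a median of -1.61 and a highest of 0.056 in HCT116, and of -1.66, -1.26 and -0.24 in DKO1. It was higher in DKO1 in 87 of 95 bins, against 57.4% of autosomal bins of compartment B in HCT116. The mean went from -1.48 to -1.17, a difference of 0.30, and the rank in the chromosome from 15.3% to 18.1%. The difference was as large in the flanks, at 0.31, and became -0.011 once the 10 Mb running mean was subtracted. With medians subtracted it was 0.61.

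Within the SNRPN window the difference varied in sign and size. The sole A bin of HCT116, starting at 25600001 near the UBE3A end by gene order, had a PC1 of 0.056 and went to -0.33, the most negative difference of the window. This was the only bin by which HCT116 divided the surrounding B interval, which in DKO1 was unbroken over 4680 kb, from 23680001 to 28360000. Stretches higher in DKO1 by at least 0.5 SD were spread along the window, up to the bin starting at 25500001. The longest lay towards the other end, in 7 adjoining bins from 24020001 to 24160000. It held the largest positive difference, 0.76, and the mean of the 7 bins went from -1.66 to -0.99. These bins are the end of the sole domain of the window, listed from 23840001 to 24160000 in HCT116 and from 23800001 to 24160000 in DKO1. The match covered 88.9% of the longer one. No other domain was listed in either line in the rest of the 1900 kb.

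GNAS, which encodes the stimulatory G protein alpha subunit, had the same compartment in both lines and listed domains in HCT116 only. The 5 bins from 57400001 to 57500000 of chromosome 20 had values of 0.78, 0.90, 1.00, 0.84 and 0.87 in HCT116 and of 0.71, 0.91, 0.85, 0.79 and 0.80 in DKO1. The ranges overlapped, and the mean went from 0.88 to 0.81. The difference of -0.069 became 0.37 when chromosome medians were subtracted, and 0.0049 in windows widened by 200 kb. The rank went from 74.1% to 70.1%. In both lines the window lay in an A interval of 960 kb. HCT116 listed domains from 57240001 to 57440000 and from 57440001 to 57640000, which meet inside the window. DKO1 listed none over it, and its nearest boundary to the meeting point was 200 kb away.

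PEG3 lay deep in compartment B in both lines. PEG3 encodes a zinc-finger protein expressed from the paternal allele, and ZIM2 and MIMT1 are its RefSeq neighbours. The 3 bins from 57300001 to 57360000 of chromosome 19 were between -1.63 and -1.62 in HCT116 and between -1.80 and -1.78 in DKO1. The difference of -0.16 was less than the SD of 0.26 of the differences of the other bins of the chromosome. In DKO1 just 1 of the 2790 bins of the chromosome lay below the window mean, against 61 in HCT116, bins of the window included. That bin of DKO1 was the window's own, starting at 57320001, and at -1.80 was the lowest of the chromosome. The difference became -0.035 with medians subtracted and -0.034 in widened windows. The domain over the window ran from 57240001 to 57440000 in HCT116 and from 57160001 to 57680000 in DKO1, 200 kb against 520 kb, and the overlap of 38.5% was no match.

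The 3 windows on chromosome 7 differed from each other. MEST, which encodes an enzyme of the hydrolase fold family, had a higher PC1 in DKO1. Its 3 bins from 130100001 to 130160000 had values of 0.54, 0.45 and 0.26 in HCT116 and of 1.19, 1.01 and 0.86 in DKO1. The mean difference was 0.60, and the rank was higher by 22.1 percentage points, from 57.5% to 79.6%. Of the other bins of the chromosome, 23.3% were higher by at least the window mean. The flanks differed as much on average, by 0.62, with 0.75 before the window and 0.48 after it. Close after the window PC1 was lower in DKO1 over a short stretch, with a difference of -0.45 at 160 kb from the first bin. With medians subtracted the difference at MEST was 1.05. It was 0.35 after subtraction of the running mean and 0.28 in windows widened by 200 kb. The domain over MEST, from 129880001 to 130520000, had the same limits in both lines. Its length of 640 kb compares with a median of 280 kb over autosomal domains of either line.

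PEG10, a gene derived from a retrotransposon that is needed for placenta formation, had a lower PC1 in DKO1. The 6 bins from 94200001 to 94320000 were 0.40, 0.51, 0.72, 0.76, 0.80 and 0.81 in HCT116 and -0.10, 0.21, 0.21, 0.30, 0.33 and 0.34 in DKO1. PC1 was lower in DKO1 in all 6 bins, while 44.8% of autosomal A bins of HCT116 were higher. The mean difference was -0.45, and the rank went from 70.8% to 62.6%. With medians subtracted the difference was -0.010. It was -0.13 after subtraction of the running mean and -0.69 in widened windows. The first bin went from A to B and closed a run of 8 such bins from 94060001 to 94220000. In DKO1 the rest of the window belonged to an A interval of 140 kb, which in HCT116 was part of one of 2000 kb, from 93380001 to 95380000. The flanks differed by -0.54 on average, from 0.51 to -0.026. No domain was listed over PEG10 in either line, and the nearest was 480 kb away in HCT116 and 800 kb away in DKO1.

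GRB10, which encodes an adaptor that dampens insulin receptor signalling, stayed in A. The 12 bins from 50640001 to 50880000 had a lowest value of 0.59, a median of 1.06 and a highest of 1.13 in HCT116, and of 0.82, 1.11 and 1.38 in DKO1. PC1 was higher in DKO1 in 10 of the 12, against 44.8% of autosomal A bins of HCT116, and the ranges overlapped. The mean difference of 0.17 was 0.61 with medians subtracted and -0.16 after subtraction of the running mean, and the rank went from 84.0% to 81.2%. Both lines placed the window in an A interval, of 1100 kb in HCT116 and 1060 kb in DKO1. The domain starting at 50480001 ended at 50720000 in HCT116 and at 50760000 in DKO1. A domain of 520 kb, from 50720001 to 51240000, was listed in HCT116 only.

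PLAGL1, which encodes a zinc-finger transcription factor that restrains growth, also stayed in A. The 8 bins from 144240001 to 144400000 of chromosome 6 were 0.52 to 0.97 in HCT116, with a median of 0.65, and 0.17 to 0.67 in DKO1, with a median of 0.47. PC1 was lower in DKO1 in all 8 bins, although the ranges overlapped. Of autosomal A bins of HCT116, 44.8% were higher. The mean difference was -0.23, close to -0.21 in the flanks, and the largest difference was -0.46 in the bin starting at 144300001. The rank went from 69.5% to 63.8%. The A interval around the window measured 3060 kb in HCT116 and 860 kb in DKO1. No domain was listed within 1000 kb of the window in either line.

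Across the 10 windows, the difference had the same sign as the mean over both flanks of 1 Mb together in all 10. At PEG3 the flanks themselves differed in sign, at -0.22 before the window and 0.059 after it. They differed in size elsewhere, for example at GRB10 (0.012 and 0.39) and SNRPN (0.16 and 0.41). Flanks adjoin their window and neighbouring bins are not independent, and how often other regions match their flanks was not counted. Window and flank means differed by less than 0.25 SD in each window. The largest excess over the flanks was 0.22, at IGF2R, and the largest shortfall -0.18, at IGF2-KCNQ1. PC1 was higher in DKO1 in 6 windows and lower in 4, but ranks were higher in 4 and lower in 6, since IGF2-KCNQ1 and GRB10 were higher in PC1 and lower in rank. Rank changes were under 10 percentage points in 8 windows, with the other two at IGF2R and MEST. The order of the windows by PC1 was led by IGF2-KCNQ1 and ended by SNRPN and PEG3 in both lines.

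**Figure D3:**
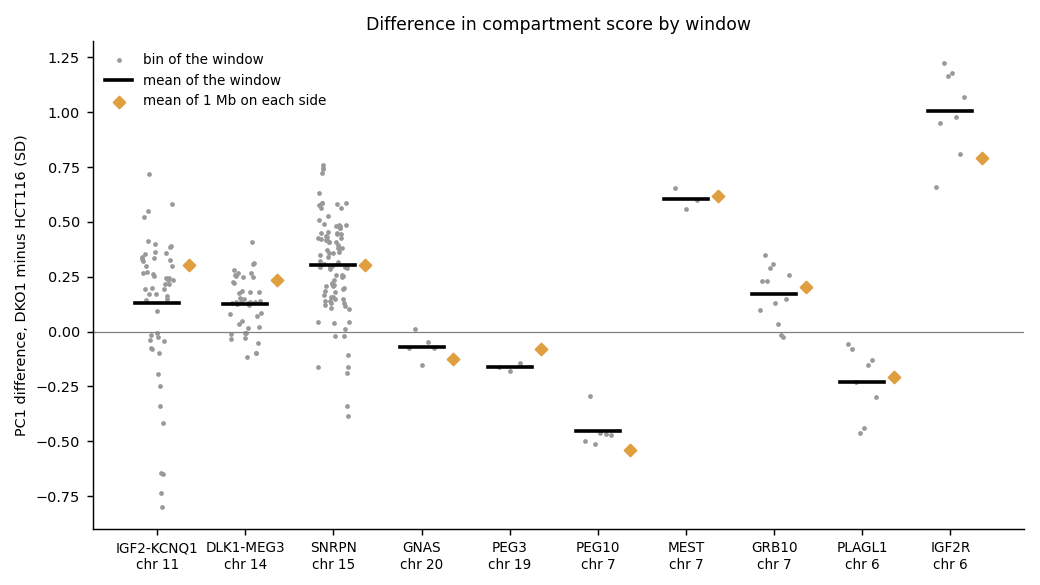
Difference in PC1, DKO1 minus HCT116, in SD of the chromosome for each window and its chromosome. Grey points are bins, black bars the mean of the window and orange diamonds the mean of 1 Mb on each side. The diamonds have the sign of the bars in all 10 windows, and all 8 bins of IGF2R lie at or above 0.66.

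**Figure D4:**
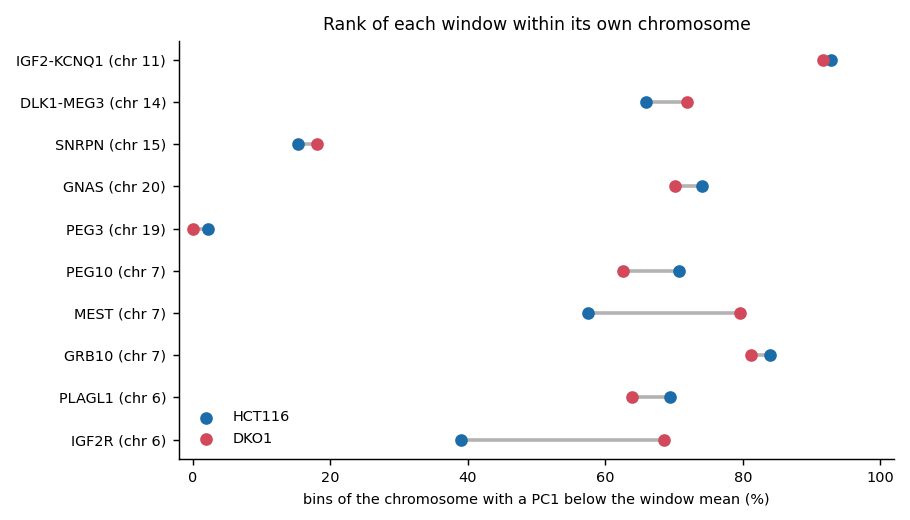
Percentage of bins of the chromosome whose PC1 was below the mean of the window, for HCT116 (blue) and DKO1 (red). IGF2R moved from 39.0% to 68.5% and MEST from 57.5% to 79.6%, while the other 8 windows moved by at most 8.13 percentage points.

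Fewer domains were listed in DKO1 than in HCT116, over the imprinted loci as over the autosomes. A domain was called matched when it overlapped one of the other line over at least 80% of both. HCT116 listed 16 domains over 8 windows and DKO1 11 over 6 windows, a ratio of 68.8%, where the ratio over all autosomal domains was 42.7%. Of the 16, 8 were matched in DKO1 (50%), against 35.9% of autosomal HCT116 domains. Of the 11 in DKO1, 8 were matched in HCT116 (72.7%), against 84.0%. Boundaries inside the windows were found in the other line, within 40 kb, for 11 of 14 in HCT116 (78.6%, against 45.2% on the autosomes) and for 9 of 10 in DKO1 (90%, against 92.5%). The IGF2-KCNQ1 window held 5 domains in each line and 7 of the 14 boundaries, so these shares rest largely on that cluster. Requiring an overlap of 90% left 4 matched domains in each line. GNAS and IGF2R had domains in HCT116 only, and PEG10 and PLAGL1 had none in either line.

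**Figure D5:**
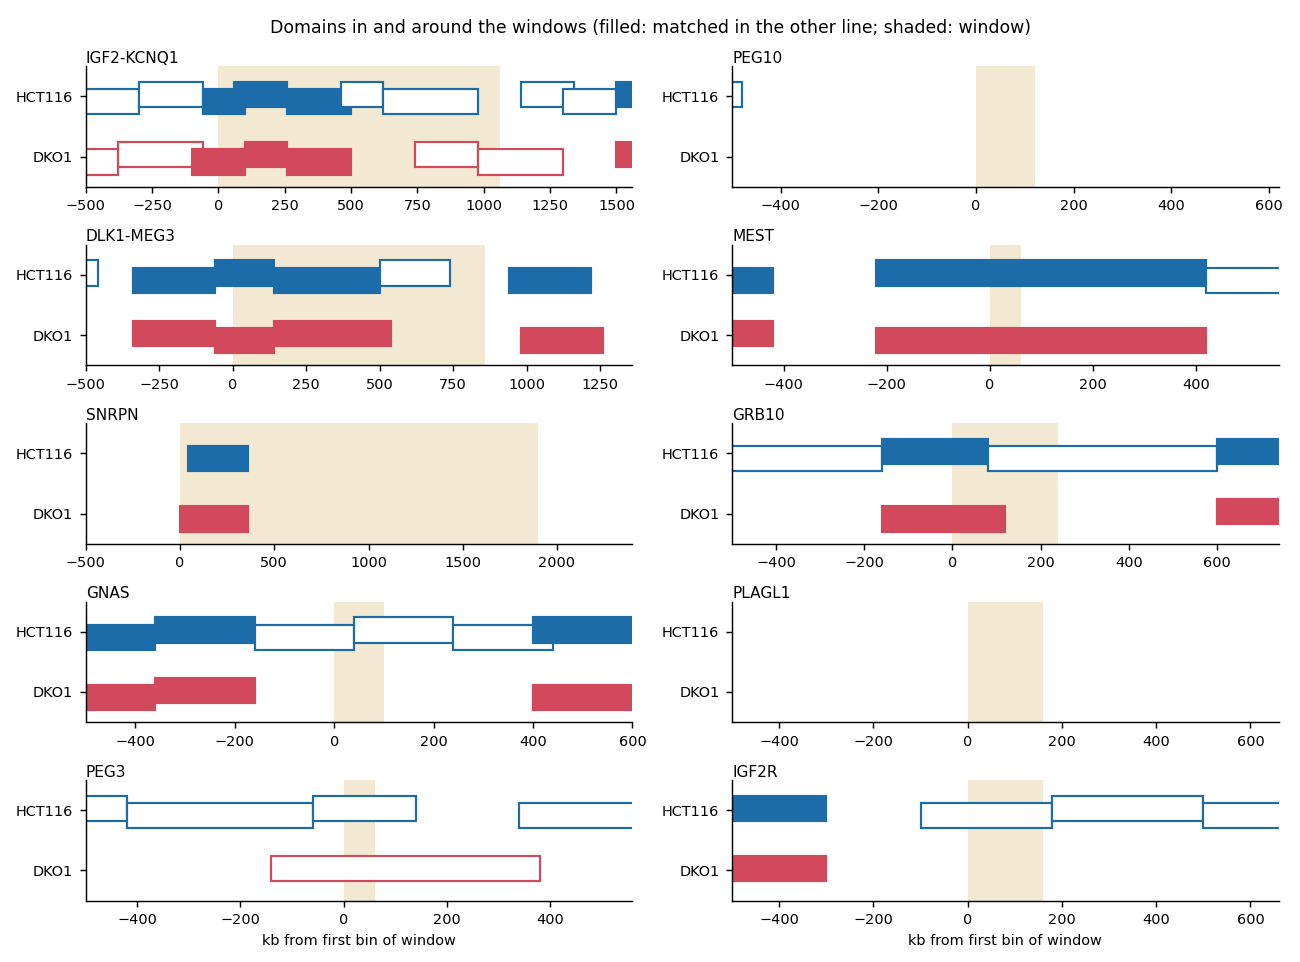
Domains listed in and within 500 kb of each window, against kb from the first bin, with HCT116 in blue above and DKO1 in red below. Filled bars are matched in the other line, open bars are not, shading marks the window, and small vertical offsets only separate neighbours. The domain over MEST has the same limits in both lines, and no DKO1 domain touches the GNAS or the IGF2R window.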

How the data were processed

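Per the labels, Hi-C libraries of 3 replicates per line were made with a commercial kit that uses a pair of restriction enzymes. HiC-Pro, HOMER 4.6 and the build hg19 (GRCh37) are listed in the submitters' processing notes with no role, and the domain caller is not given in the sources used here. The deposited PC1 score, per the file headers 1 value per 20 kb bin, had, on every chromosome of the full tracks, a mean of 0 and an SD of 1.00 to 1.01. The deposited domain lists hold positions on a 40 kb grid. The deposited files used here hold no counts, so depth is unknown and limits the precision by an unknown amount.

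Bins and domains touching the windows were selected, with positions given from 1. Calls used the sign of PC1, a difference of 0.5 SD, a reciprocal overlap of 80% and a tolerance of 40 kb. All windows were described, with every switched run and domain, and the extreme bins. Of 47 genes listed, 46 matched RefSeq by symbol. The windows, lists and comparisons were chosen with earlier results of these data known. Functions were tested on simulated data. Python 3.11.15, numpy 2.4.6, pandas 2.3.3 and matplotlib 3.10.9 were used.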

Additional observations from a re-analysis of the deposited data

How the results depend on the processing

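No paired analysis was possible because the 3 replicates of each line share 1 pooled map, which also means that leaving out a replicate could not be tried. The cause of each move below was not tested. The ranks were added after seeing the data, and the other alternatives were planned. A value was taken as moved beyond 1.5 times and, for mean differences, beyond 0.1 SD as well, or, for shares of A bins, beyond the 95% Wilson interval. That interval counts neighbouring bins as independent, which they are not, so it served only as a fixed limit and measures no error. The share of A bins was 55.5% in HCT116 and 58.1% in DKO1, against 53.7% and 49.2% over autosomal bins. It was 70.1% and 78.3% with each window counted once, 92.2% and 97.2% without SNRPN, and 63.7% in HCT116 in windows widened by 200 kb. Bins going from A to B numbered 2, and 0 when both lines had to have a PC1 that far (0.5 SD) or further from 0, 0 with medians subtracted, 1 with smoothing over 5 bins, 7 with the 10 Mb running mean subtracted, 19 in widened windows and 1 without SNRPN. The 8 bins from B to A became 1 with the PC1 minimum and 4 with the running mean subtracted. The mean difference over all bins, 0.20, became 0.45 with medians subtracted and -0.037 with the running mean subtracted. Subtracting medians gave 0.34 at IGF2-KCNQ1, 0.31 at DLK1-MEG3, 0.61 at SNRPN, 0.37 at GNAS, -0.035 at PEG3, -0.010 at PEG10, 1.05 at MEST and 0.61 at GRB10. Subtracting the running mean gave -0.17 at IGF2-KCNQ1, -0.011 at SNRPN, -0.13 at PEG10, 0.35 at MEST, -0.16 at GRB10 and 0.41 at IGF2R. Widened windows gave 0.0049 at GNAS, -0.034 at PEG3, -0.69 at PEG10 and 0.28 at MEST. Ranks changed by -1.16 percentage points at IGF2-KCNQ1 and by -2.78 at GRB10, against the sign of their differences. The counts of HCT116 domains, 16, became 25 in widened windows and 10 when at least 50% of their length had to lie inside, which left 6 in DKO1, of which 5 were matched. At an overlap of 90%, 4 were matched in each line, and with a tolerance of 0 kb 6 boundaries of HCT116 were found. The other 87 values kept their direction and, apart from the ranks, which were judged by sign only, stayed within these limits.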
